A study of Mus musculus with 8 samples.

Results

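Ion channels and neurotransmitter receptors were followed as the probe sets whose single annotated gene symbol begins with Gria, Grin, Grik, Grm or Scn and a digit, or with Gabr, Glra, Chrn, Kcn or Cacn. A probe set is a group of short oligonucleotides that together read 1 transcript, and the choice by symbol used no measured value. It took in 113 of 12422 probe sets without controls, and 91 of 8251 genes with a single annotated symbol. The cells were neurospheres, spheres of neural stem and progenitor cells in culture, grown from single forebrains of mouse embryos at embryonic day 14.5. All of them, the untreated ones included, carried a transgene of bcl2, an inhibitor of cell death, and the promoter that drives it is not given in the sources used here. Cells were exposed for 2 days to 150 nM TSA, to 500 nM AzaC and 150 nM TSA together (AzaC/TSA), to 500 nM AzaC alone, or were left untreated. TSA is trichostatin A, which inhibits histone deacetylases, and AzaC is 5-aza-2'-deoxycytidine, which inhibits the enzymes that methylate DNA. Each of these 4 groups had 2 arrays, 1 from each of 2 experiments that the labels call independent. An array is named below by its group and experiment, as in TSA 1. The labels do not say whether the 4 cultures of an experiment shared an embryo, and p-values measure only the spread between these arrays.

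These genes encode the proteins through which neurons signal. Ligand-gated receptors open on binding glutamate (AMPA, NMDA and kainate receptors), GABA, glycine or acetylcholine. Voltage-gated sodium, calcium and potassium channels shape the action potential and the calcium entry that follows it, while inward rectifiers and two-pore potassium channels set the resting potential. Neural stem cells carry some of these receptors and channels before they become neurons, and GABA-A and AMPA or kainate receptors are known to respond to transmitter in progenitors of the embryonic cortex.

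These probe sets reached the signals used as cutoffs less often than all probe sets did. The values are array intensities on a linear scale, set by the authors to a common trimmed mean of 200.1 on each array. A probe set was tested when it reached a signal of 50 on 2 or more arrays. That held for 42 of the 113 probe sets (37.2%), which stand for 38 genes, against 7994 of all 12422 (64.4%). Of the other 71, 55 never reached 50 and 16 did so on 1 array, and 19 lay under a signal of 20 on all 8 arrays. At a signal of 100 on 2 arrays the share was 14.2% of these probe sets, against 48.7% of all. The number of tested members at 50 was 22 (untreated 2) to 30 (AzaC 1) per array. Over all probe sets, 53.1% to 58.3% reached 50 per array, and array medians ran from 59.2 to 72.7. Signals under 20 were raised to 20 before log2, and a change with such an array on its lower side is called floored. It is a difference of mean log2 signals and no bound on the ratio of mean signals. Precision is limited by having 2 arrays a group. A log2 change between 4 arrays and 4 had a median standard error (SE) of 0.492 over these 42 probe sets and 0.289 over all tested. Stem and progenitor markers were read beside the culture's label and differed among themselves. Over the 8 arrays, Fabp7 had signals of 1062.9 to 10920.1, Sox2 of 2390.6 to 4830.4 and Nes of 1049 to 3003. Notch1 ran from 488.7 to 1123.9 and Hes1 from 262.8 to 414. Lower were Pax6 (39.2 to 159.7), Prom1 (4.2 to 181.2), Id4 (22 to 119.7) and Sox1 (14.1 to 88.3). So were Msi1 (10.3 to 78), Hes5 (12.4 to 93.8) and Vim (21.3 to 56). The neuron marker Tubb3 ran from 834.1 to 2375.9 and the astrocyte marker Apoe from 236.9 to 8116.3. The markers do not settle which cells the cultures held.

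By family, the glutamate receptors were the AMPA receptors with 6 of 8 probe sets tested, the NMDA receptors with 1 of 4, the kainate receptors with 2 of 5 and the metabotropic glutamate receptors with 0 of 1. Of the inhibitory receptors, 2 of 11 GABA-A probe sets and the 1 probe set of the glycine receptor gene Glra1 were tested. Nicotinic acetylcholine receptors had 2 of 3 neuronal and 4 of 8 muscle-type probe sets tested. Potassium channels had 6 of 19 voltage-gated, 3 of 8 auxiliary, 2 of 15 inward rectifier, 4 of 5 two-pore and 3 of 4 calcium- or sodium-activated probe sets tested. Voltage-gated sodium channel alpha subunits had 1 of 8, calcium channel alpha1 subunits 3 of 8 and calcium channel auxiliary subunits 2 of 5.

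The members at 50 on all 8 arrays were 9. They were Gria2 (an AMPA receptor subunit, 109.6 to 1509.5), Grin2c (an NMDA receptor subunit, 101.5 to 197.9), Gabrg1 (the gamma1 subunit of GABA-A receptors, 50.1 to 106.6), Cacna1b (the N-type calcium channel, 66.4 to 272.6), Cacna1c (an L-type calcium channel, 64.9 to 179.6), Cacnb2 (a calcium channel beta subunit, 60.2 to 141.1), Kcnh2 (the ERG potassium channel, 103.7 to 265.6), Kcnj9 (the GIRK3 inward rectifier, 127.8 to 258.2) and Kcnk4 (the two-pore channel TRAAK, 97.7 to 137.5). Signals of different probe sets are not on a common scale, so these ranges order no gene above another. The Kcnj9 range is that of 161799_r_at. The other Kcnj9 probe set, 98332_at, ran from 7.8 to 62.7, reached 50 on 1 array and was not tested. Kcnk4 kept within 97.7 and 137.5 over all 8 arrays, with pooled TSA-exposed arrays close to the others (log2 change 0.25, adjusted p = 0.531).

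Other families lay close to the signal rule. The metabotropic glutamate receptor Grm8 ran from 2.8 to 39 and was not tested. Just inside the rule were Chrnb1, a muscle-type nicotinic subunit, with a second highest array of 50.5, Gria1 with 50.8 and Chrnd, another muscle-type subunit, with 53.2. Just outside were Grik2, a kainate receptor subunit, with 49.6, Gabrg3, a GABA-A subunit, with 49.1 and Cacna1s, the calcium channel of skeletal muscle, with 49.1. Glra1, a glycine receptor subunit, had 18.1 to 92.6 over the 8 arrays. Scn8a, the only tested member among the sodium channel alpha subunits, had 9.2 to 66.9 and reached 50 on 2 arrays. The muscle-type nicotinic subunits Chrne (92967_r_at, 44.4 to 106.4) and Chrng (95639_at, 13 to 90.7) were tested as well. Other probe sets of these genes were not: 92965_at (14.2 to 60.5) and 92966_g_at (2.6 to 10.1) of Chrne, and 161215_at (7.8 to 47.9) of Chrng. Of the skeletal muscle markers named on the array, 5 of 13 were tested, among them Myod1 (44.2 to 130.9), while Acta1 ran from 2.9 to 13.8 and Myf5 from 0.9 to 21.4. The summed signal of these markers was 368.1 to 490 on TSA-exposed arrays, against 309.4 to 486.6 on the others. Their part in the nicotinic signals was not tested.

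**Figure D1:**
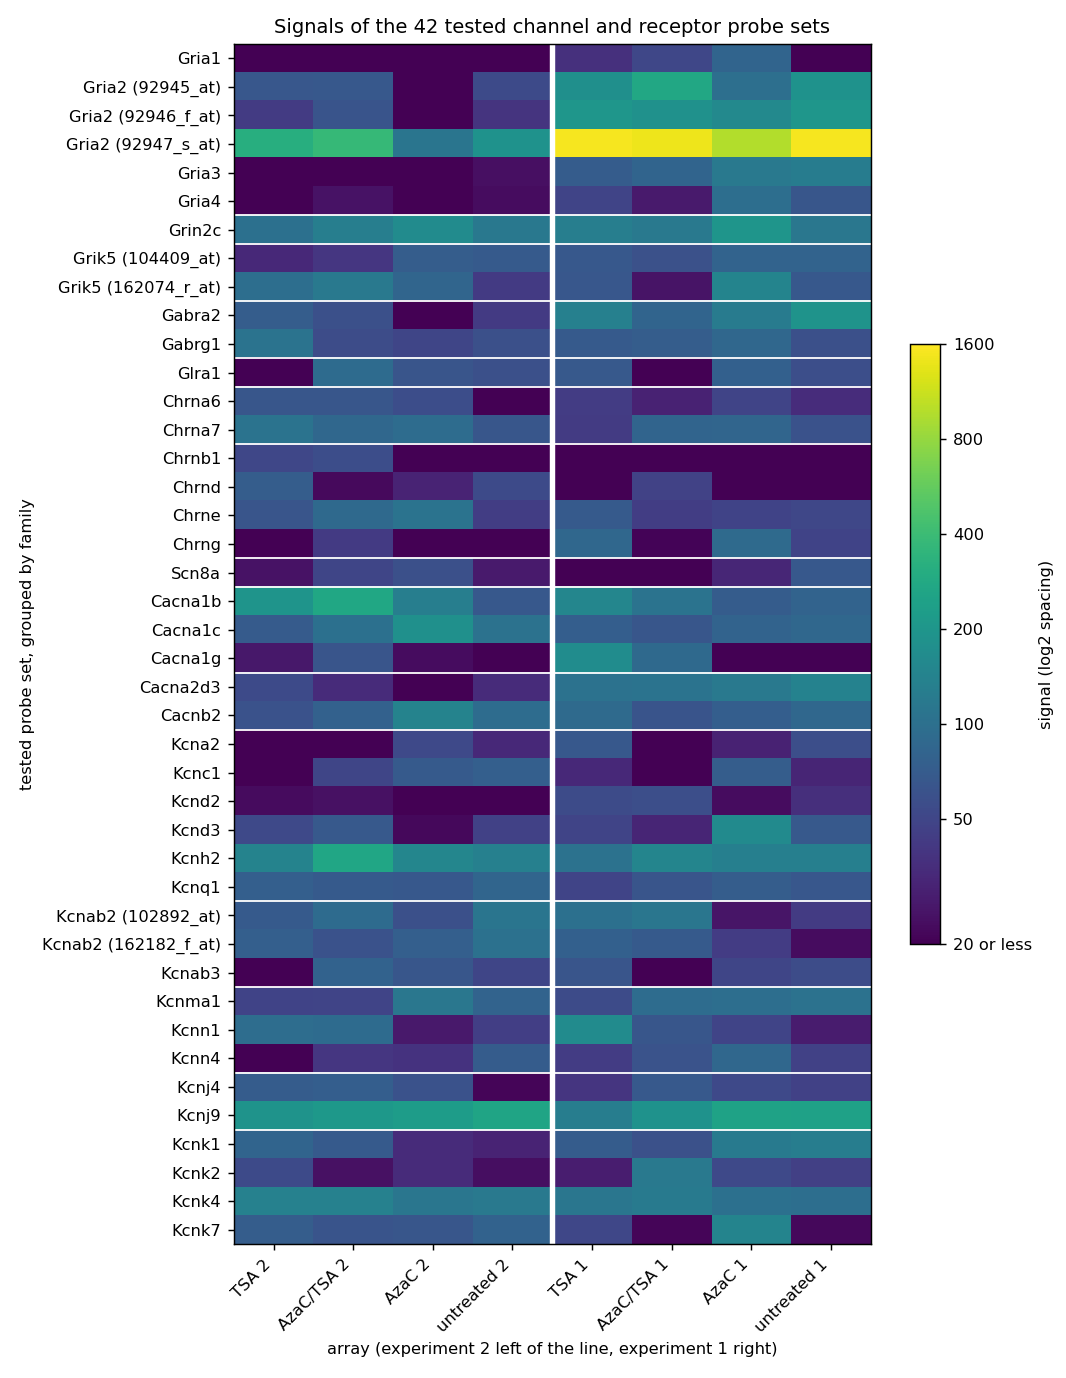
Signal of each of the 42 tested channel and receptor probe sets (rows, grouped by family, with the probe set name where a gene has several) on each array (columns, experiment 2 left of the white line), on a log2 colour scale where 20 or less is the darkest. The 3 Gria2 rows and the Gria3 and Cacna2d3 rows are darker in experiment 2 (Gria2 by 92947_s_at at 109.6 to 379.6, against 972 to 1509.5 in experiment 1).

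Between the 2 experiments, averaged over the 4 groups, the AMPA receptor genes Gria2 and Gria3 and the calcium channel gene Cacna2d3 were lower in experiment 2. AMPA receptors are tetramers of the subunits GluA1 to GluA4, encoded by Gria1 to Gria4. They carry most fast excitatory transmission, and the GluA2 subunit makes them impermeable to calcium. In experiment 2 against experiment 1, 5 of the 42 probe sets for 3 genes were lower (11.9%), where 2.63% of all tested probe sets were. None was higher, where 1.58% of all were, and at an unadjusted p of 0.05 in limma none was higher either, where 10.2% of all were. The 5 were the 3 probe sets of Gria2, Gria3 and Cacna2d3. Some members passed the signal rule through experiment 1 alone, so the count describes these probe sets and is no independent support: Gria3 was at 50 on all 4 arrays of experiment 1 and on none of experiment 2, and Gria1 and Gria4 reached 50 on arrays of experiment 1 only.

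Gria2, read by the probe set 92947_s_at, had signals of 310.6 (TSA), 379.6 (AzaC/TSA), 109.6 (AzaC) and 186.1 (untreated) in experiment 2, against 1498.9, 1425.6, 972 and 1509.5 in experiment 1, in the same order of groups. Every array of experiment 2 lay under every array of experiment 1, and the mean was 246.5 in experiment 2 and 1352 in experiment 1. The log2 change was -2.59 (SE 0.22, 6.01-fold lower, adjusted p = 0.000464 by limma), and it was lower in 4 of 4 groups. The other tested probe sets of the gene fell too, with floored log2 changes of -2.29 for 92946_f_at (adjusted p = 0.0043) and -1.90 for 92945_at (adjusted p = 0.0047). The endings _s and _f mark probe sets that may match further transcripts, and 92945_at has neither ending. The fourth probe set of the gene, 162076_r_at, ran from 0.6 to 11.8 and was not tested.

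The promoter of Gria2 is shown because its sequence is known to hold a silencer element, RE1, to which the repressor REST binds. The run is the 250 bases before the RefSeq start of the gene, chr3:80802836-80803085 (GRCm38.p6, minus strand), written 5′ to 3′ along the gene, and the capitals mark the match to the RE1 core.
Gria2: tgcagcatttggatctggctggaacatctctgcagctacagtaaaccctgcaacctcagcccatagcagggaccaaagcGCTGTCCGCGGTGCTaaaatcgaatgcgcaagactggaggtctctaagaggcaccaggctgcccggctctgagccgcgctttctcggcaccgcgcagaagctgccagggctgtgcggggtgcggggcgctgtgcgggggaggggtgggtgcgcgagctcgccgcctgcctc
The core searched was AGCACC, any 2 bases, then GGACAGC, on both strands, and it was picked after this sequence had been seen. It lay 171 to 157 bases before the start, on the strand opposite to the gene. Of 32851 windows of 250 bases before gene starts, 9 (0.0274%) held the core. The promoter table matched 68 of the 91 genes, in 87 windows, of which 1 held the core. The longer left half-site TCAGCACC was in 0 of the 87, against 1.32% of all windows, and the right half-site GGACAGC was in 5 (5.75%), against 5.28% of all. A match describes letters and not binding. Rest itself had signals of 187.2, 260.2, 211.7 and 136.7 in experiment 2, against 244.4, 301.8, 363.3 and 241.1 in experiment 1 (log2 change -0.55, adjusted p = 0.148 by limma), so the groups overlapped and the change did not pass.

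Gria3 had signals of 4.1, 3.6, 1.4 and 24.1 in experiment 2, in the order TSA, AzaC/TSA, AzaC and untreated, against 71.5, 82, 117 and 126.1 in experiment 1. Only untreated 2 lay above the floor of 20 in experiment 2. The log2 change was -2.20 (floored, SE 0.34, 4.60-fold lower, adjusted p = 0.00935 by limma). Without TSA 1 the adjusted p was 0.0517, without AzaC/TSA 1 it was 0.0526 and without AzaC 1 it was 0.0716.

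The remaining AMPA subunits lay lower in experiment 2 without passing the test. Gria4 had 12.9, 24.9, 11.3 and 23 in experiment 2, against 49, 27.3, 97.4 and 65 in experiment 1. The 4 arrays of each experiment did not overlap, and the log2 change was -1.30 (floored, SE 0.45, adjusted p = 0.136). Gria1 had 9.1, 3.7, 6.1 and 7.3 in experiment 2, against 36.8, 50.8, 81.6 and 9.4 in experiment 1, where untreated 1 was also under the floor. Its log2 change was -1.06 (floored, SE 0.47, adjusted p = 0.238). These are values of 92943_at. The other Gria1 probe set, 92944_at, was at 55.9 on untreated 1 and at 11.4 or less on every other array, and was not tested. Over the 6 tested AMPA probe sets the median log2 change was -2.05 with 6 of 6 below 0, against a median of 0.02 over all tested probe sets and -0.05 over all 42 members, of which 21 were below 0. Those of Gria1, Gria3 and Gria4 passed the signal rule through experiment 1 alone, and the rest all read Gria2. The shared direction is therefore no independent support for a difference of the family.

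Cacna2d3, an alpha2delta subunit that helps bring calcium channels to the membrane, had 53.6, 34.5, 10.9 and 34.1 in experiment 2, against 104.2, 105.6, 117.3 and 139.4 in experiment 1. All arrays of experiment 2 were lower, and AzaC 2 was under the floor. The log2 change was -1.79 (floored, SE 0.34, 3.46-fold lower, adjusted p = 0.0218). Leaving out any 1 of the 8 arrays ended this call, with adjusted p-values of 0.0546 (TSA 1), 0.0507 (TSA 2), 0.0889 (AzaC/TSA 1), 0.0758 (AzaC/TSA 2), 0.122 (AzaC 1), 0.0963 (AzaC 2), 0.0676 (untreated 1) and 0.0583 (untreated 2). Without 1 array, a group gives no difference between experiments and 3 pairs remain. Gabra2, the alpha2 subunit of GABA-A receptors, had 72.4, 58.4, 8.7 and 42 in experiment 2, against 134.7, 81.5, 122.9 and 191.2 in experiment 1. These groups did not overlap, and the log2 change was -1.55 (floored, SE 0.39) with an adjusted p of 0.0567.

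On floored values, 7 probe sets for 5 genes (Gria2, Gria3, Gria4, Cacna2d3 and Gabra2) were lower on all 4 arrays of experiment 2 than on any of experiment 1, which is 16.7% of the 42 against 3.94% of all tested. None was higher without overlap, against 3.88% of all. Gria3 and Gria4 passed the signal rule through experiment 1 alone, and several of the 7 probe sets read Gria2. These shares therefore describe the probe sets and are no independent support. The promoter of Cacna2d3, 250 bases before its start at chr14:29721865-29722114 (GRCm38.p6, minus strand), is shown beside that of Gria2 since both genes were lower in experiment 2. Capitals mark its CG dinucleotides, the bases that DNA methyltransferases act on, and it held 30 of them and no RE1 core.
Cacna2d3: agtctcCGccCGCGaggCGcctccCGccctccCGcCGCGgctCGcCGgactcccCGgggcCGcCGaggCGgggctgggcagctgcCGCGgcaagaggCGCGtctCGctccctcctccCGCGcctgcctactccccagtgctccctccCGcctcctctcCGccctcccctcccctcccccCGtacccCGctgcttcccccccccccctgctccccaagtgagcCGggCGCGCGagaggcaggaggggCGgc

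Markers of other cell types were read in the same comparison, because in bulk cultures fewer cells of a type and less RNA per cell cannot be told apart. Of the neuron markers, 0 of 14 tested passed in either direction, with a summed signal of 3319.5 to 6255.2 in experiment 2 and 3058.7 to 6285.1 in experiment 1. Of the 6 astrocyte markers tested, Apoe fell (log2 change -2.59, adjusted p = 0.00514) and Aldoc rose (1.94, adjusted p = 0.0043), and the sum was 2978.9 to 6011.5 in experiment 2 and 4046.3 to 10522 in experiment 1. Of the 10 stem and progenitor markers, Id4 fell (-1.66, adjusted p = 0.0267), with a sum of 6489 to 17820 in experiment 2 and 8748.6 to 17586 in experiment 1. Thy1, listed with fibroblasts though neurons also express it, fell (floored log2 change -3.21, adjusted p = 0.0142), and so did the microglial gene Cx3cr1 (-1.65, adjusted p = 0.0477). The 12 blood and microglia markers on the array, of which 6 were tested, had a sum of 323.4 to 829 in experiment 2 and 496.8 to 638.1 in experiment 1. Of these, Ptprc, Aif1 and Itgam lay under the floor on all arrays, while Cd68 ran from 30 to 474.1, Hba-a1 from 56.8 to 169.2 and Csf1r from 7.8 to 123.2. The part of these cell types in the lower AMPA subunit signals was not tested.

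**Figure D2:**
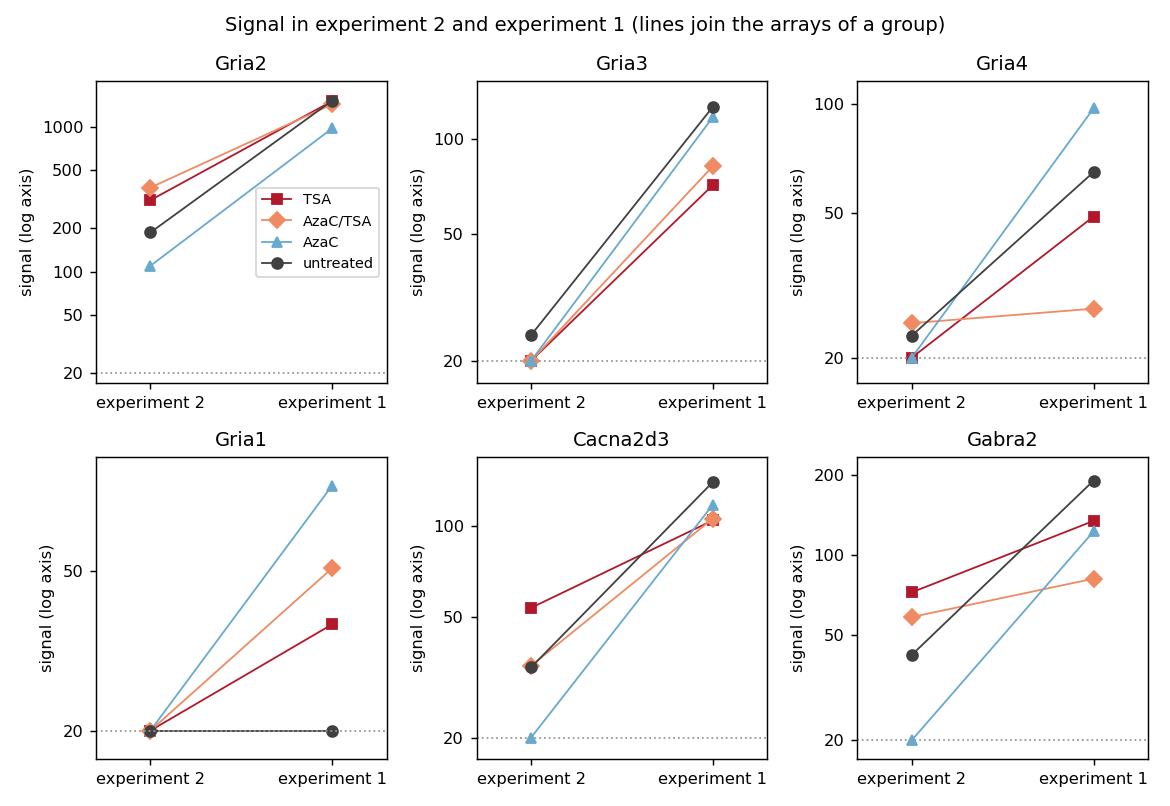
Signal on a log axis of Gria1 to Gria4, Cacna2d3 and Gabra2 in experiment 2 (left) and experiment 1 (right), with 1 line per group and values under 20 drawn at the dotted floor. Gria2 (92947_s_at) is lower in experiment 2 in 4 of 4 groups, with 109.6 to 379.6 in experiment 2 and 972 to 1509.5 in experiment 1, and Gria3 sits at or near the floor in experiment 2.

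TSA exposure, compared over 4 exposed arrays (TSA and AzaC/TSA) and 4 arrays without it (AzaC and untreated), changed 1 of the 42 probe sets past the threshold, that of Kcnn1. It encodes SK1, a small-conductance potassium channel opened by intracellular calcium. The count was 1 of 42 higher (2.38%), where 6.94% of all tested probe sets were, and 0 lower, where 7.56% of all were. At an unadjusted p of 0.05 in limma 1 was lower (Kcnma1), where 15.3% of all were. The median log2 change was 0.09 over the 42 probe sets and -0.03 over all tested, and 23 of the 42 lay above 0.

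Kcnn1 had signals of 167 (TSA 1), 96.5 (TSA 2), 65 (AzaC/TSA 1) and 92.9 (AzaC/TSA 2), against 48.9 (AzaC 1), 26.9 (AzaC 2), 28 (untreated 1) and 44.8 (untreated 2). It was the 1 member at 50 on all 4 TSA-exposed arrays and on no other, so it passed the signal rule through these arrays. The log2 change was 1.47 (SE 0.37, 2.77-fold higher, adjusted p = 0.0309 by limma, 0.0178 with the experiment as a block), with exposed arrays higher in 4 of 4 pairs. The change rests on few arrays: the adjusted p was 0.109 without TSA 1, 0.0546 without AzaC/TSA 1, 0.0911 without AzaC/TSA 2, 0.0842 without AzaC 2, 0.0901 without untreated 1 and 0.0561 without untreated 2.

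With the experiment as a block, which removes the difference between experiments from the spread, 5 probe sets for 4 genes were higher with TSA (11.9%), where 11.7% of all were, and 0 were lower, where 12.1% of all were. Besides Kcnn1 these were Cacna1g, Cacna1b and 2 probe sets of Gria2. Cacna1g, a T-type calcium channel that opens near the resting potential, had 168.4 (TSA 1), 26.7 (TSA 2), 90.1 (AzaC/TSA 1) and 63.1 (AzaC/TSA 2), against 15.8 (AzaC 1), 23 (AzaC 2), 10.4 (untreated 1) and 11.9 (untreated 2). The groups did not overlap, and all 4 arrays without TSA were close to or under the floor. It reached 50 on TSA 1, AzaC/TSA 1 and AzaC/TSA 2 alone, so it too passed the signal rule through exposed arrays, and its place in these counts is no independent support. The log2 change was 1.78 (floored, SE 0.56), with an adjusted p of 0.0669 and of 0.0308 with the block. Leaving out TSA 2, the lowest of the exposed arrays, gave a log2 change of 2.44 and an adjusted p of 0.0115.

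Cacna1b, the N-type calcium channel that triggers transmitter release, had 149.9 (TSA 1), 194 (TSA 2), 106.6 (AzaC/TSA 1) and 272.6 (AzaC/TSA 2), against 71.7 (AzaC 1), 130.2 (AzaC 2), 81.2 (untreated 1) and 66.4 (untreated 2). Only AzaC/TSA 1 and AzaC 2 overlapped between the sides, and each exposed array lay above the unexposed array of its own pair. The log2 change was 1.02 (SE 0.36), with an adjusted p of 0.0911 and of 0.0321 with the block. Without AzaC/TSA 1 it was 1.36 with an adjusted p of 0.0379. Gria2 by 92947_s_at differed by 0.77, with an adjusted p of 0.615 and of 0.0312 with the block. By 92945_at it differed by 0.86 (floored), with an adjusted p of 0.451 and of 0.0425 with the block. The remaining tested probe set of Gria2, 92946_f_at, did not pass in either fit. Its log2 change was 0.50 (floored), with an adjusted p by limma of 0.73 and of 0.262 with the block. For 92947_s_at in experiment 2, TSA had 310.6 against 186.1 untreated, and AzaC/TSA had 379.6 against 109.6 with AzaC. In experiment 1, TSA had 1498.9 against 1509.5 untreated, and AzaC/TSA had 1425.6 against 972 with AzaC.

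The promoters of Kcnn1 and Cacna1b are shown, with CG dinucleotides in capitals, since both passed for TSA in the fit with the block, and CG is what the enzymes inhibited by AzaC methylate. Kcnn1 has 2 annotated starts, with the 250 bases before them at chr8:70857009-70857258 and chr8:70863259-70863508 (minus strand), and Cacna1b has 1, at chr2:24763153-24763402 (minus strand), all from RefSeq on GRCm38.p6.
Kcnn1, first window: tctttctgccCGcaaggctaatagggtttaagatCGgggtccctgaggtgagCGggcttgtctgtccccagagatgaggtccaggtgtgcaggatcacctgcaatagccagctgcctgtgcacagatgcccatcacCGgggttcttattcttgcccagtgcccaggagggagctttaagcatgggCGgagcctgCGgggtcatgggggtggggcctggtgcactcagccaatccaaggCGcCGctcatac
Kcnn1, second window: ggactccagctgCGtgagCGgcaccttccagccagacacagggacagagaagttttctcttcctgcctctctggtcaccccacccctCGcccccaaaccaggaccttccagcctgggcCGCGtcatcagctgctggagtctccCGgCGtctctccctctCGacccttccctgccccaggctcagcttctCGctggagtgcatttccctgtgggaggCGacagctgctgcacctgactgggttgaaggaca
Cacna1b: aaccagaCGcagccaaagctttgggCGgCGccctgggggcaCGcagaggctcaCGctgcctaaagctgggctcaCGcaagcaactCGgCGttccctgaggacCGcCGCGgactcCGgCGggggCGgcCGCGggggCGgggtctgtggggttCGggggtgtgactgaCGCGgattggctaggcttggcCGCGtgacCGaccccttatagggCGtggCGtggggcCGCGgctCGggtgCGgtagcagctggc
The Kcnn1 windows held 8 and 10 CG dinucleotides and the Cacna1b window 29. The median was 14 over 40 windows of tested members, 7 over 47 windows of untested members and 6 over all 32851. Windows with 10 or more CG made up 55.0% of those of tested members, 25.5% of those of untested members and 37.8% of all. Gria3 and Cacna1g were not among the matched genes.

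**Figure D3:**
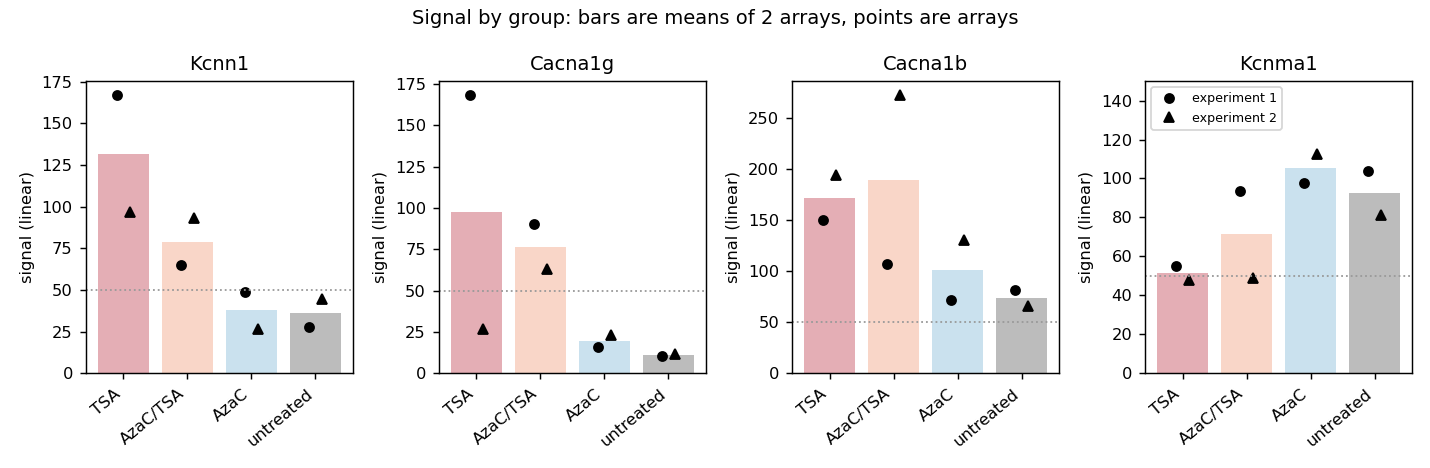
Signal on a linear axis of Kcnn1, Cacna1g, Cacna1b and Kcnma1 in the TSA, AzaC/TSA, AzaC and untreated groups. Bars are means of 2 arrays, points are the arrays by experiment and the dotted line is the signal of 50 used as a filter. Kcnn1 lies above 50 on the 4 TSA-exposed arrays (65 to 167) and below it on the other 4 (26.9 to 48.9).

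None of the 42 probe sets fell past the threshold with TSA. Kcnma1, the large-conductance BK channel, had 54.9 (TSA 1), 47.9 (TSA 2), 93.8 (AzaC/TSA 1) and 48.8 (AzaC/TSA 2), against 97.8 (AzaC 1), 112.7 (AzaC 2), 104 (untreated 1) and 81.2 (untreated 2). Its log2 change was -0.74 (SE 0.31, adjusted p = 0.148), with the exposed array lower in 4 of 4 pairs. Kcnc1, the fast delayed rectifier Kv3.1, had a log2 change of -1.04 (floored, SE 0.46, adjusted p = 0.171), with signals of 15.3 to 50.4 on exposed arrays and 31.7 to 75.5 on the others. Without overlap, 2 probe sets were higher (Kcnn1 and Cacna1g, 4.76%), where 11% of all were. Kcnj9 and the Grik5 probe set 104409_at were lower without overlap (4.76%), where 12.6% of all were. Kcnj9 had 127.8 to 208 on exposed arrays and 226.7 to 258.2 on the others (log2 change -0.48, adjusted p = 0.176), and Grik5, a kainate receptor subunit, had 33.3 to 66.3 on exposed arrays and 68.9 to 81 on the others (log2 change -0.66, adjusted p = 0.240). The second Grik5 probe set, 162074_r_at, overlapped between the sides. So did the second Kcnj9 probe set, 98332_at, which was not tested (7.8 to 36.9 on exposed arrays and 17.3 to 62.7 on the others).

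Each TSA-containing group was also set against untreated cells alone, and these comparisons share their untreated arrays. For TSA, 0 of 42 were higher, where 2.1% of all were, and 0 were lower, where 2.93% of all were. At an unadjusted p of 0.05 in limma, 3 passed (7.14%), where 20.8% of all did. Kcnn1 averaged 131.8 in TSA and 36.4 in untreated cells (n = 2 arrays each), with a log2 change of 1.84 (SE 0.52) and an adjusted p of 0.0846. With the block it passed (adjusted p = 0.0487), as 1 of 42 higher where 5.59% of all were. Cacna1b averaged 172 in TSA and 73.8 in untreated cells (log2 change 1.22, SE 0.50, adjusted p = 0.213). Kcnj9 averaged 158.4 in TSA and 251.3 in untreated cells (log2 change -0.69, SE 0.30, adjusted p = 0.239).

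For AzaC/TSA against untreated, 0 of 42 were higher, where 1.29% of all were, and 0 were lower, where 1.83% of all were, with 2 at an unadjusted p of 0.05 in limma (4.76%, against 17.6% of all). Cacna1b averaged 189.6 in AzaC/TSA and 73.8 in untreated cells (log2 change 1.22, SE 0.50, adjusted p = 0.255), and Cacna1g averaged 76.6 in AzaC/TSA and 11.2 in untreated cells (1.92, floored, SE 0.80, adjusted p = 0.256). Kcnn1 averaged 78.9 in AzaC/TSA and 36.4 in untreated cells (1.13, SE 0.52, adjusted p = 0.306).

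With AzaC, no channel or receptor gene passed the threshold, and neither did any other probe set. Pooled over TSA, 0 of 42 passed, where 0% of all 7994 did, and at an unadjusted p of 0.05 in limma 0 of 42 passed, where 2.54% of all did. Smallest in p were Grin2c, Kcnj4, Kcnh2, Chrna7 and Gria1, none of which passed (adjusted p = 0.998 each). Grin2c had 117.2, 130.3, 197.9 and 164.4 on AzaC-exposed arrays (AzaC/TSA 1, AzaC/TSA 2, AzaC 1 and AzaC 2), against 129.9, 101.5, 112.9 and 116.6 on the others (TSA 1, TSA 2, untreated 1 and untreated 2). The AzaC arrays alone lay above the rest, and the log2 change was 0.38 (SE 0.23). Kcnj4, an inward rectifier, averaged 63.6 on AzaC-exposed arrays and 44.6 on the others (0.63, SE 0.38). Kcnh2 averaged 173.7 on AzaC-exposed arrays and 128.3 on the others (0.39, SE 0.27), and Chrna7, the alpha7 nicotinic subunit, averaged 86.1 on AzaC-exposed arrays and 68.5 on the others (0.41, SE 0.34). Gria1 averaged 35.5 on AzaC-exposed arrays and 15.7 on the others (0.62, floored, SE 0.57).

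AzaC alone against untreated likewise gave 0 of 42, where 0% of all passed, and 0 at an unadjusted p of 0.05 in limma, where 2.19% of all passed. Grin2c averaged 181.2 in AzaC and 114.8 in untreated cells (log2 change 0.65, SE 0.32), the nicotinic subunit Chrna6 averaged 52.8 in AzaC and 26.2 in untreated cells (1.00, floored, SE 0.57), and the two-pore subunit Kcnk7 averaged 104.7 in AzaC and 50.4 in untreated cells (1.22, SE 0.77). The AzaC by TSA interaction, the difference between the effect of TSA with AzaC and without it, gave 0 of 42, where 0% of all passed, and 0 at an unadjusted p of 0.05 in limma, where 1.78% of all passed. Its smallest p-values were those of Kcnk7 (log2 change -1.96, SE 1.08), Grik5 by 162074_r_at (-1.59, SE 0.99) and Chrna6 (-1.26, SE 0.81). The other Grik5 probe set, 104409_at, gave 0.02.

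Whether the effect of TSA differed between the experiments was tested as an interaction. None of the 42 passed: 0 were higher, where 0.05% of all were, and 0 were lower, where 0.025% of all were. At an unadjusted p of 0.05 in limma, 7 probe sets for 6 genes passed (16.7%), where 10.2% of all did. Kcnk1, the two-pore channel TWIK-1, had 81.8 with TSA and 68.9 with AzaC/TSA in experiment 2, against 34.5 with AzaC and 31 untreated. In experiment 1 it had 71.8 with TSA and 59.2 with AzaC/TSA, against 119.2 with AzaC and 128.4 untreated. The TSA effect averaged 1.20 on the log2 scale in experiment 2 and -0.92 in experiment 1, and the difference of 2.12 (SE 0.53) had an adjusted p of 0.264.

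Gabra2 had a TSA effect of 1.17 in experiment 2, floored, and -0.55 in experiment 1 (difference 1.71, SE 0.53, adjusted p = 0.350). For Kcnd3, the A-type channel Kv4.3, the effect was 0.91 in experiment 2 and -1.42 in experiment 1 (difference 2.33, SE 0.82, adjusted p = 0.385). AzaC 1 stood high for Kcnd3, at 162.6 against 21.8 to 67.9 on the other 7 arrays. Kcnab2, a beta subunit of voltage-gated potassium channels, went the other way by 102892_at, with 0.01 in experiment 2 and 1.68 in experiment 1 (difference -1.67, SE 0.63, adjusted p = 0.412), and its second probe set gave a difference of -1.60 (SE 0.64). Because the differences between experiments without TSA enter these values, the untreated and AzaC arrays of the 2 experiments are shown beside the exposed ones in the plot of TSA effects by experiment.

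**Figure D4:**
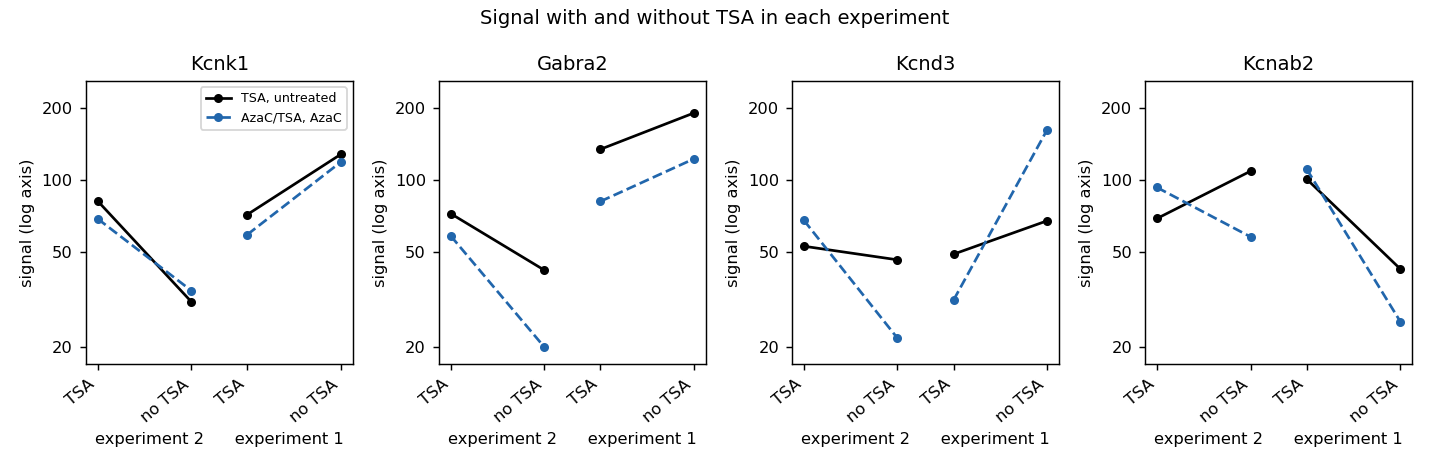
Signal on a log axis of Kcnk1, Gabra2, Kcnd3 and Kcnab2 (102892_at) with TSA and without it, in experiment 2 and in experiment 1. Solid lines join TSA and untreated, dashed lines AzaC/TSA and AzaC, and values under 20 are drawn at 20. For Kcnk1 both lines slope one way in experiment 2 and the opposite way in experiment 1.

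**Figure D5:**
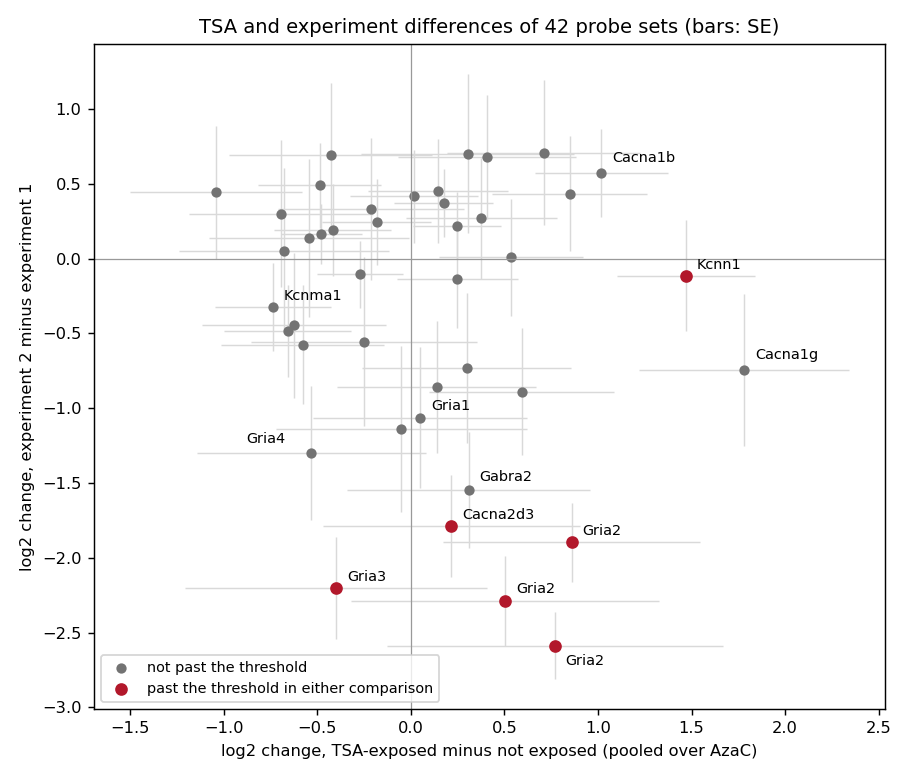
Log2 change with TSA (horizontal, TSA-exposed minus not exposed) and between experiments (vertical, experiment 2 minus experiment 1) for the 42 tested probe sets, with SE bars. Red points passed the threshold in either comparison, and named points had an unadjusted p under 0.05 in one. The Gria2, Gria3 and Cacna2d3 points sit between -2.59 and -1.79 on the vertical axis and Kcnn1 at 1.47 on the horizontal one.

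Genes that act with these channels and receptors were read from lists. For these lists and the markers after them, the shares over all tested probe sets were 6.94% higher and 7.56% lower with TSA. With the block they were 11.7% and 12.1%. Between experiments, 1.58% of all were higher and 2.63% lower in experiment 2. Of 14 other receptors tested, 2 rose with TSA: Gabbr1, a subunit of the metabotropic GABA-B receptor (log2 change 1.36, adjusted p = 0.0287), and P2rx4, an ATP-gated channel (1.74, adjusted p = 0.00852). P2rx4 had 299.5, 403.9, 302 and 301.1 on exposed arrays (TSA 1, TSA 2, AzaC/TSA 1 and AzaC/TSA 2), against 60.6, 155.1, 83 and 112.7 on the others (AzaC 1, AzaC 2, untreated 1 and untreated 2), with no overlap. Of 14 other channels, 2 fell, Itpr2, an intracellular calcium release channel (-1.97, adjusted p = 0.0134), and Vdac3, a pore of the outer mitochondrial membrane (-0.70, adjusted p = 0.0297). Under the block Clcn3 (0.80, adjusted p = 0.00884), Vdac2 (0.52, adjusted p = 0.0222) and Clic4 (-0.54, adjusted p = 0.0289) passed too, for 2 risen and 3 fallen.

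Of 17 tested genes for anchoring and clustering of receptors, 3 rose: Gabarapl2 (1.28) and Gabarapl1 (0.87), relatives of a protein that binds GABA-A receptors, and the syntaxin Stx1a (1.73, floored). With the block 4 rose and 2 fell, with Ank3 (1.1, floored, adjusted p = 0.0265), Nptx1 (-1.67, adjusted p = 0.00305) and Gphn (-0.67, adjusted p = 0.0476) added. Transmitter synthesis and transport had 0 of 7 past the threshold and the REST repressor complex 0 of 8 (limma). Of 12 genes of calcium and CREB signalling to the nucleus, Fos (3.58), Egr1 (2.40) and the calcineurin subunit Ppp3ca (0.76) rose and Camk2b (-0.77) fell. Adding the block brought Ppp3r1 (0.77, adjusted p = 0.0237), for 4 risen and 1 fallen. Between experiments, Itpr2 (-1.06, adjusted p = 0.0167) and Ank3, which anchors sodium and potassium channels (-1.53, floored, adjusted p = 0.0248), were lower in experiment 2, and Nptx1, a pentraxin that clusters AMPA receptors, was higher (1.59, adjusted p = 0.018).

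Neuron markers moved with TSA: of 14 tested, 9 rose and 1 fell (Tubb3), with the block as without it, and their summed signal was 5771.8 to 6285.1 on exposed arrays and 3058.7 to 4593.5 on the others. Of 10 stem and progenitor markers, 1 fell (Fabp7, log2 change -1.89) and 0 rose. With the block 1 rose, Prom1 (1.75, floored, adjusted p = 0.00977), and 2 fell, with Pax6 (-1.08, adjusted p = 0.0207) added. The markers had a sum of 6489 to 14345 on exposed arrays and 15301 to 17820 on the others. Fabp7 weighs most in that gap, with 1062.9 to 5499.4 on exposed arrays and 7830.1 to 10920.1 on the others. The next brightest markers overlapped: Sox2 had 2390.6 to 4830.4 on exposed arrays and 3119.9 to 3750.7 on the others. Nes had 1049 to 2921.3 on exposed arrays and 2053.3 to 3003 on the others. The sum therefore does not describe the markers as a set. The part of the neuron and progenitor markers in the Kcnn1, Cacna1g and Cacna1b signals was not tested.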

How the data were processed

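RNA of mouse neurosphere cells was measured on 8 arrays, 2 for each of 4 groups. Each probe set has 1 deposited intensity per array, on a linear scale. The values show that the authors scaled each array to a 2%-trimmed mean of 200.1, and the software is not given in the sources used here. Of 12488 probe sets, 66 controls were left out. The array annotation gave 1 symbol to 10833 of the others, several to 396 and none to 1193. From the authors' deposited intensities, signals under 20 were raised to 20 and log2 was taken. The 7994 probe sets at 50 or more on 2 or more arrays entered 1 linear model over the 8 arrays, with a mean for each group (lmFit and eBayes with trend, limma 3.58.1, R 4.3.3). Tests were two-sided, with Benjamini-Hochberg adjustment over the 7994 and a threshold of 0.05. There were 8 contrasts, and the 2 that involve the experiment came from fits with the experiment as a term. Arrays of 1 number share an experiment, per the labels' titles, and their deviations from the group means correlated between groups with r from 0.203 to 0.411 over 6 pairs. Values with the experiment as a block stand beside results they change.

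Members and gene lists were chosen with earlier results of these data known. Where a gene has several probe sets, the one with the highest mean log2 signal stands for it, and others are named by probe set. Named members were those past the threshold in any contrast. For the pooled and experiment contrasts they were also up to 12 of the largest rises and 12 of the largest falls with an unadjusted p under 0.05, or the 5 of smallest p, and for the other contrasts the 3 of smallest p. The brightest member of each family, the 10 brightest over all and the 3 nearest the signal rule on each side were named too. Gabrg1, Chrng and the probe sets whose groups did not overlap were picked after their values were seen. Alternatives changed the scaling, the floor, the filter, the variance model, the block, the groups fitted or left out each array. The fit was tested on simulated data. Promoter sequences come from RefSeq (GRCm38.p6).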

Additional observations from a re-analysis of the deposited data

Results flagged for a closer look

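Of 32 sets of 4 arrays, 6 had 1 array that stood apart from the other 3 on log2 signals raised to the floor of 20. Gria1 was under the floor on every array of experiment 2, so that set could not be checked. Chance gives about 1 in 20 sets, but in 3 of the 6 the other arrays were all at the floor, which fixes the ratio of gap to range at 1, so the 6 cannot be read against that rate. In those 3 the ratio was also taken on the log2 of the deposited signals and set against Dixon's critical value for 4 arrays. Cacna1g on AzaC 2, at 23 among the arrays without TSA, then had a ratio of 0.473, and Gria3 on untreated 2, at 24.1 among the experiment 2 arrays, had 0.622, both under that value. Gria1 on TSA 1, at 36.8 among the arrays without AzaC, had 0.844. In the rest of the 6 sets no array was under the floor. Among the arrays without TSA, untreated 1 stood apart for Kcnc1 at 31.7, under the others. Among the AzaC-exposed arrays, AzaC/TSA 2 stood apart for Kcnh2 at 265.6, above the others. Among the experiment 1 arrays, AzaC 1 stood apart for Gria2 at 972, under the others.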

How the results depend on the processing

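The number of channel and receptor probe sets past the threshold for pooled TSA, 1 as reported, was 2 with a floor of 5, 0 with no filter, 0 with a filter at 100, 5 with the replicate block and 0 to 2 with 1 array left out. For TSA against untreated, 0 as reported, it was 1 with a floor of 40 and 1 with the replicate block. The block changed no other count. For the experiments, 5 as reported, it was 0 with no filter and 3 to 4 with 1 array left out: 3 without TSA 1, without AzaC/TSA 1 and without AzaC 1, where the 3 probe sets of Gria2 remained. Gria2 by 92947_s_at lost its call only with no filter (adjusted p = 0.12, limma), among 17 alternatives. Gria3 lost it in 4 of 17, Cacna2d3 in 10 of 17 and Kcnn1 for pooled TSA in 7 of 17. Gabra2 passed between experiments with an offset of 20 in place of the floor (adjusted p = 0.0487), and Cacna1g passed for pooled TSA with a floor of 5 (adjusted p = 0.0494). With a filter at 100, 16 probe sets were tested in place of 42. Kcnn1, with a second highest array of 96.5, was not among them, so its call for pooled TSA could not be made there. The interaction of Grik5 reversed to 0.0163 by its other probe set, 104409_at. No other named change reversed under an alternative that was run. Median centring moved the median of all tested probe sets to -0.125 for AzaC, 0.143 for the interaction and -0.163 for TSA by experiment. Where a cause of these differences is not part of the alternative itself, the cause was not tested. An array left out leaves its group with 1, assumed to vary like the others.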

Other observations

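Markers of further cell types were read for TSA exposure (4 exposed arrays against 4 without it) by limma. Over all tested probe sets, 6.94% were higher and 7.56% lower, or 11.7% and 12.1% with the experiment as a block. Of 6 astrocyte markers tested, Clu, a secreted chaperone, rose (log2 change 4.10, adjusted p = 1.78e-05) and S100b, a calcium-binding protein, fell (-1.29, adjusted p = 0.0163). With the experiment as a block 1 rose and 2 fell, with Aldoc (-1.22, adjusted p = 0.007) added. Clu had 1638.2, 2048.8, 1055.6 and 1021.8 on the exposed arrays (TSA 1, TSA 2, AzaC/TSA 1 and AzaC/TSA 2), against 71.8, 97.9, 79.6 and 74.8 on the others (AzaC 1, AzaC 2, untreated 1 and untreated 2), without overlap. Among blood and microglia markers 1 of 6 rose, the lysosomal gene Cd68 (2.84, adjusted p = 0.00285). Among endothelial and pericyte markers 1 of 2 rose, the VEGF receptor gene Flt1 (1.18, adjusted p = 0.0366), and among fibroblast markers 1 of 6, the proteoglycan gene Dcn (1.41 on floored signals, adjusted p = 0.0455). None of 4 oligodendrocyte, 5 skeletal muscle or 4 heart muscle markers passed for TSA or between experiments. Between experiments, no endothelial marker, other receptor or gene of transmitter synthesis, the REST complex or CREB signalling passed.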
